A study of Rattus norvegicus with 320 samples.

Results

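The miR-148 and miR-152 family was examined in rat small RNA sequencing data through its 3 members, rno-miR-148a-3p, rno-miR-148b-3p and rno-miR-152-3p, where rno stands for the rat. They were taken by name as the rows of the deposited count table that carry these numbers and end in -3p, and they are 3 of the 616 miRNAs of the table. The libraries came from Fischer 344 rats, an inbred laboratory strain, of both sexes at 2, 6, 21 and 104 weeks of age. Adrenal gland, brain, heart, kidney, liver, lung, skeletal muscle, spleen and thymus were sampled in both sexes, testis in males and uterus in females, with 4 replicates per organ, sex and age and no labelled treatment or allele. The study took 10 organs from each rat, so libraries of different organs share animals, but the labels do not say which. Of the 320 libraries 2 were left out, brain male week 6 replicate 3 and spleen female week 104 replicate 4, which the study had removed. Whole organs were ground, so each library mixes cell types, and fewer cells of a type and less RNA per cell cannot be told apart.

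A microRNA binds messenger RNAs mainly through its seed, the bases from position 2 to 8, and lowers their translation and stability. Members of a family share the seed and are therefore predicted to bind overlapping sets of messenger RNAs. The miR-148 and miR-152 family is known for targeting the DNA methyltransferase Dnmt1, and miR-148a, an abundant liver miRNA, is known to lower the low-density lipoprotein receptor and the cholesterol exporter Abca1.

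The mature sequences are shown because they define the family and show how little separates its members. They are given 5′ to 3′ as deposited, with the seed in capitals.
miR-148a-3p: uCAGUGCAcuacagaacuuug
miR-148b-3p: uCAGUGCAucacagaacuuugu
miR-152-3p: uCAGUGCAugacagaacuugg
All 3 matched the RefSeq entry of the same name on GRCr8, and no other of the 616 miRNAs carried this seed. Counted from 1 at the 5′ end over the 21 bases that all members have, miR-148a-3p and miR-148b-3p shared 19 bases and differed by C9U and U10C. Between miR-148a-3p and miR-152-3p 18 bases were shared, with the changes C9U, U10G and U20G, and between miR-148b-3p and miR-152-3p 19 were shared, with C10G and U20G. The differences lay next to the seed and at the 3′ end. The alignment allowed a mismatch, and how a read with an error at a differing base was assigned is not given in the sources used here, and an exchange of reads between members was not tested.

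On GRCr8 the mature miR-148a-3p lies at chr4:81664447-81664467 on the minus strand and overlaps no other gene of the RefSeq table, with Npvf and Nfe2l3 near it. The miR-148b-3p sequence lies at chr7:136299930-136299951 on the plus strand inside Copz1, and miR-152-3p at chr10:82329435-82329455 on the plus strand inside Copz2. Copz1 and Copz2 are paralogues that encode zeta subunits of the coatomer, the coat of Golgi transport vesicles. No expression of these host genes was analysed here.

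The opposite arms of the hairpins and the miR-130 and miR-301 family are shown for comparison, because the second family carries the same letters shifted by 1 base.
miR-148a-5p: aAAGUUCUgagacacucugacuc
miR-148b-5p: gAAGUUCUguuauacacucagg
miR-152-5p: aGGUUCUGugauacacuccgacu
miR-130a-3p: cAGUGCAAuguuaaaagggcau
miR-301a-3p: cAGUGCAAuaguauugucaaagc
Bases 1 to 7 of the 4 miR-130 and miR-301 miRNAs were identical to bases 2 to 8 of the 3 members. Capitals again mark bases 2 to 8, which the miR-148a-5p and miR-148b-5p arms share with each other and not with miR-152-5p. The sequences of miR-148b-5p and miR-301a-3p are those of the deposited table, and these names were not among the RefSeq entries used.

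Total counts per library were 315550 to 1.06e+07. Every member was counted in every library, with 920 to 201633 counts of miR-148a-3p (median 30443), 218 to 7779 of miR-148b-3p and 94 to 4205 of miR-152-3p. By mean level in CPM, the count divided by the library total and scaled to the same total for all libraries, the members ranked 14, 76 and 118 of 616. At the lowest count of 94, counting error alone was 10.3%. No library was identical to another, and every pair of replicates differed by more than counting error, the lowest chi-square divided by its degrees of freedom being 12.7.

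The 3p arm was the dominant product of each hairpin in all organs. It held 95.9% ± 1.47 (SD over all libraries used) of the counts of both arms for miR-148a, 96.5% ± 1.18 for miR-148b and 91.6% ± 3.40 for miR-152. The lowest organ mean was that of miR-152 in testis, at 87.2% ± 4.39 (SD, n = 16).

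Liver held by far the most miR-148a-3p. Its level there was 77574 ± 21453 CPM (mean ± SD, n = 32), from 51643 to 140422, which is 7.76% of all miRNA counts of the organ. Spleen followed with 32905 ± 21932 CPM (n = 31), thymus with 23390 ± 14380.2 and adrenal gland with 14698 ± 6730.1. Heart, testis, lung and uterus lay between 8087 and 8683 CPM, and brain, kidney and skeletal muscle between 3803 and 4918. On this CPM scale the ratio between the highest and the lowest organ, liver and skeletal muscle, was 20.4, whereas under TMM brain was lowest at every age, though not separated from skeletal muscle at weeks 21 and 104 (adjusted p = 0.247 and 0.601, edgeR).

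Differences between organs came from edgeR's quasi-likelihood test in a fit per age, with TMM scaling and Benjamini-Hochberg adjustment over the 616 miRNAs. A pair was called at an adjusted p under 0.05 and at least a 2-fold difference. Over the 55 pairs of organs at 4 ages, 220 comparisons, miR-148a-3p was called in 144 (65.5%), miR-152-3p in 101 (45.9%) and miR-148b-3p in 56 (25.5%). Over all miRNAs 51.1% of such comparisons were called, which lies above the share of miR-148b-3p and below that of miR-148a-3p. Without the fold requirement the counts were 180, 181 and 156 of 220. The share over all miRNAs without that requirement is not given here, so these counts cannot be set against it.

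Liver exceeded each of the other 10 organs in miR-148a-3p at every age under TMM and DESeq2 scaling. The closest organ was adrenal gland at week 2, where liver was 4.56-fold higher, and again at week 6, at 4.17-fold. At week 21 spleen was closest, at 3.71-fold. At week 104 it was thymus, at 1.69-fold (adjusted p = 0.00425, edgeR). The closest organ thus lay nearer to liver at week 104 than at the earlier ages. Under scaling to library size alone, liver at week 104 was above 9 of 10 organs, and its log2 difference from spleen was 0.38 with an adjusted p of 0.163.

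The order of the organs below liver was less sharp. Ranked by mean CPM, neighbours differed under TMM in 6, 7, 7 and 5 of the 10 steps at weeks 2, 6, 21 and 104, but not all of these differences ran in the CPM order. Brain was below skeletal muscle at week 2 (log2 difference -1.06), testis below uterus at weeks 6 and 21 (-1.44 and -0.97) and brain below kidney at weeks 6, 21 and 104 (-1.41, -1.58 and -0.96), although their mean CPM was higher. Spleen and adrenal gland could not be separated at week 2 (29586 and 20592 CPM, adjusted p = 0.623, edgeR) or week 6. Spleen and thymus could not be separated at week 21 (adjusted p = 0.944) or week 104 (52002 and 45514 CPM, adjusted p = 0.281). From the fourth to the eighth place at week 104, lung, heart, adrenal gland, testis and uterus, no neighbours differed.

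**Figure D1:**
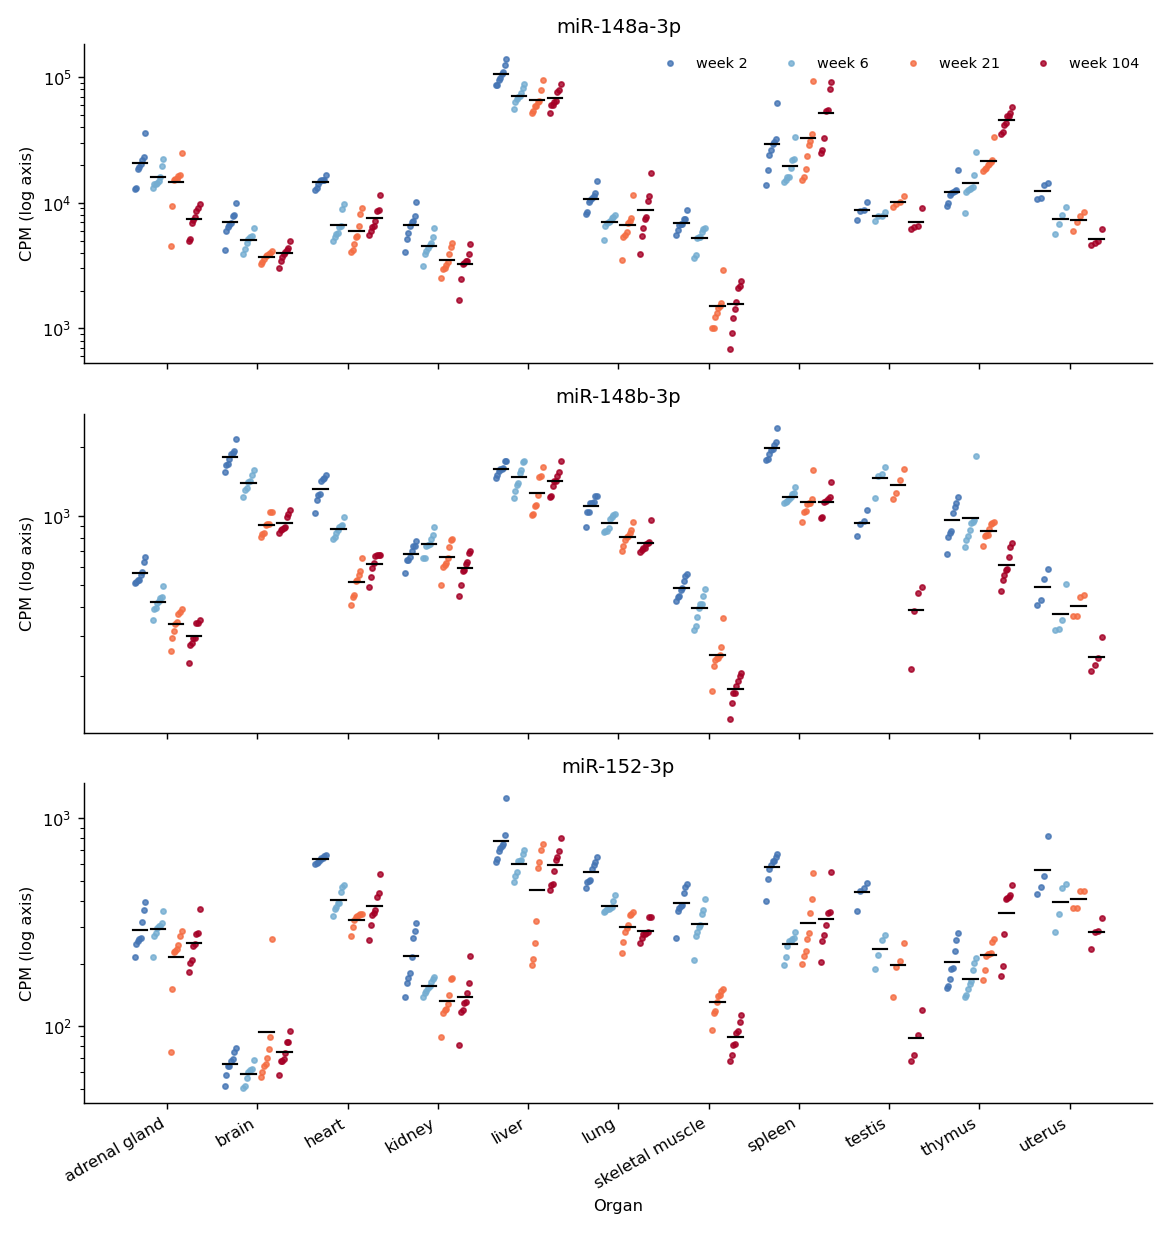
Levels of miR-148a-3p, miR-148b-3p and miR-152-3p in CPM on a log axis, in 3 panels, for 11 organs with the ages 2, 6, 21 and 104 weeks side by side; each point is a library and each bar the mean of a group. For miR-148a-3p liver sits highest at every age, skeletal muscle drops between weeks 6 and 21 and thymus climbs to 45514 CPM at week 104, while miR-152-3p is lowest in brain.

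The miR-148b-3p level was flatter. By mean CPM liver (1442 ± 217), spleen (1379.7 ± 392) and brain (1259 ± 402) were highest and skeletal muscle lowest (326 ± 132), a ratio of 4.43 between the extremes. The place of brain depended on the scaling. Under TMM brain was below spleen at week 6 (log2 difference -0.76, adjusted p = 6.16e-09, edgeR) and below thymus at week 21 (-0.93, adjusted p = 5.63e-12). In both cases the mean CPM of brain was the higher. Liver was above all 10 other organs at weeks 6, 21 and 104 under TMM (largest adjusted p = 1.38e-05, edgeR), and above 8, 8 and 10 of them under library size alone. At week 2 liver was above 9 organs and did not differ from spleen, with 1604 ± 98.8 and 1978 ± 213 CPM (1.10-fold higher in liver under TMM, adjusted p = 0.295). Skeletal muscle was below all other 10 organs at weeks 21 and 104 under TMM, and below 8 of them at week 21 under DESeq2.

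For miR-152-3p the extremes were liver (607 ± 199 CPM) and brain (73.8 ± 36.6), a ratio of 8.22. Brain was below all 10 other organs at each age under TMM and DESeq2, with a largest adjusted p of 1.93e-09 under TMM. Under library size alone it was below 9 organs at week 21 and 8 at week 104. Liver and uterus, where the level was 413 ± 139 CPM (n = 16), were not separated at any age under TMM, with adjusted p from 0.0692 to 0.459. By mean CPM heart (435 ± 130), lung (379 ± 115) and spleen (368 ± 158) followed. Under TMM heart was below uterus at week 6 (log2 difference -0.57, adjusted p = 6.07e-05, edgeR) and lung below it at week 104 (-1.60, adjusted p = 4.42e-13). Their mean CPM was higher than that of uterus at those ages.

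Added together, the members took 7.96% ± 2.16 of liver counts, 3.47% ± 2.19 of spleen counts and 2.45% ± 1.43 of thymus counts, and 0.436% ± 0.274 in skeletal muscle, the lowest organ by column totals. On TMM effective library sizes brain was lowest, at 0.293%. The miR-148a-3p share of the family ran from 78.5% ± 2.86 in brain to 97.3% ± 0.668 in liver. Brain was the organ with the largest share of miR-148b-3p, at 20.2% ± 2.70, ahead of kidney at 13.6% ± 3.49. The share of miR-152-3p was highest in skeletal muscle, at 5.80% ± 1.89. These shares are ratios within a library and do not depend on its scaling.

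Across the 44 groups of organ and age, the members followed different patterns. On mean log2(CPM + 1) the Pearson correlation was 0.54 between miR-148a-3p and miR-148b-3p, 0.62 between miR-148a-3p and miR-152-3p and 0.19 between miR-148b-3p and miR-152-3p. Among the 457 miRNAs whose mean count reached 10, the one most like each member was the other arm of its own hairpin. The values were 0.96 for miR-148a-5p, 0.92 for miR-148b-5p and 0.89 for miR-152-5p. Next for miR-148a-3p came miR-92a-3p (0.78) and miR-26b-3p (0.76), for miR-148b-3p miR-505-3p (0.84) and miR-340-3p (0.81), and for miR-152-3p miR-28-3p (0.79) and miR-199a-5p (0.77). The 44 points share libraries, depth and scaling between the miRNAs, so the coefficients are a description.

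Age was compared within each organ, as the mean change over the sexes in a model of sex and age groups. There were 33 pairs of member and organ, and a change was called at an adjusted p under 0.05 (edgeR's quasi-likelihood test, TMM). From week 2 to week 21, the span from suckling to adult rats, 14 pairs fell and 4 rose. Over all miRNAs and organs 25.3% of pairs fell and 21% rose, against 14 and 4 of 33 for the family. The median log2 change of the 33 pairs was -0.24. Over the 457 miRNAs whose mean count reached 10 the median lay between -0.28 and 0.15 in the single organs. At the 2-fold level 1 of 33 fell and none rose, while 19.3% of all pairs fell by that amount. The share of all pairs that rose by it is not given here. Under TMM the median change over the 457 miRNAs was between -0.37 and 0.20 in every organ and step. Under library size alone it was between -1.05 and 0.54, so that changes on the CPM scale and under TMM differ in size.

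Each member had called changes in several organs. For miR-148a-3p brain, heart, kidney and skeletal muscle fell and testis and thymus rose. For miR-148b-3p brain, heart and spleen fell and testis rose. For miR-152-3p heart, kidney, liver, lung, skeletal muscle, spleen and testis fell and brain rose. Of these, the heart call was lost without replicate 3 or 4 (-0.24 each, adjusted p = 0.0842 and 0.0955, edgeR), the spleen call without replicate 2 (-0.41, adjusted p = 0.0617), and the liver call without replicate 2 or 4 (-0.44 and -0.36, adjusted p = 0.0713 and 0.0882) and with lane as a covariate (-0.38, adjusted p = 0.199). Adrenal gland and uterus had no called change in any member. The sign of the uncalled changes of miR-148a-3p and miR-152-3p in adrenal gland, of miR-148b-3p in kidney, liver and uterus and of miR-152-3p in uterus flipped between scalings, and library size alone called the liver value of miR-148b-3p lower (-0.36, adjusted p = 0.00791).

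**Figure D2:**
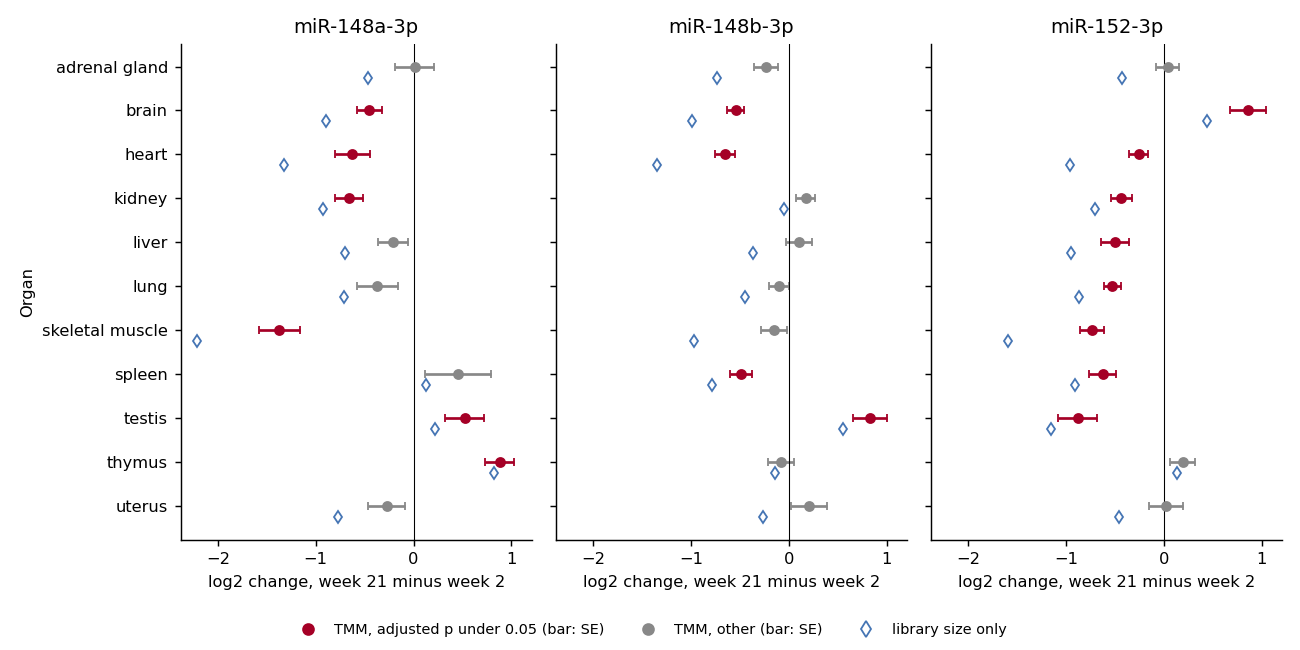
Log2 change from week 2 to week 21 of each member in 11 organs under TMM scaling, with bars of ±1 SE, in red where the adjusted p is under 0.05 and grey otherwise; blue diamonds give the change under library size alone. The miR-148a-3p change is lowest in skeletal muscle (-1.37) and highest in thymus (0.88), and miR-152-3p rises in brain (0.86) and falls in testis (-0.88), while the diamonds lie lower than the TMM values in every organ.

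Skeletal muscle showed the deepest fall. At week 2 its miR-148a-3p level ran from 5572 to 8679 CPM with a median of 6817 (n = 8), at week 6 from 3630.3 to 6341 with a median of 5332, and at week 21 from 1007 to 2908 with a median of 1384. The week 21 range lay below both earlier ranges. At week 104 the level was 687 to 2380.2 CPM, median 1515. The log2 change under TMM was -1.37 ± 0.21 (SE) from week 2 to 21 (adjusted p = 5.01e-07) and -1.24 ± 0.21 from week 6 to 21 (adjusted p = 5.14e-06), and -2.22 from week 2 to 21 under library size alone. The miR-152-3p level fell with it, from 392 ± 69.3 to 130.2 ± 18.8 CPM, a log2 change of -0.74 ± 0.13 (adjusted p = 4.17e-06), and fell again to 88.7 ± 15.6 CPM at week 104 (-0.49 ± 0.13, adjusted p = 0.00587, and -0.44 and -0.42 without replicate 1 or 4, adjusted p = 0.0564 and 0.119). For miR-148b-3p the CPM went from 486 ± 50.5 to 247 ± 52.3 without overlap, but the TMM change of -0.15 ± 0.13 was not called (adjusted p = 0.338), while under DESeq2 it was -0.37 (adjusted p = 0.0207). Together the members made up 0.780% of the counts of muscle at week 2 and 0.188% at week 21.

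Heart and brain lost miR-148a-3p and miR-148b-3p. In heart miR-148a-3p ran from 12594 to 16723 CPM at week 2 and from 4038 to 9052 at week 21, with no overlap, a log2 change of -0.63 ± 0.18 (adjusted p = 0.00297, edgeR). The fall lay between weeks 2 and 6 (-0.60 ± 0.18, adjusted p = 0.00655), and -0.48 without replicate 3 (adjusted p = 0.0593). In contrast, miR-148b-3p in heart fell between weeks 6 and 21 (-0.59 ± 0.10, adjusted p = 4.15e-05), from 790 to 987 CPM to 408 to 652. In brain miR-148b-3p went from 1554 to 2157 CPM at week 2 to 805 to 1040 at week 21, without overlap, and the change was -0.54 ± 0.08 (adjusted p = 2.44e-06). Brain miR-148a-3p fell from 6983 ± 1677 to 3729 ± 295 CPM (-0.45 ± 0.13, adjusted p = 0.00382). Kidney miR-148a-3p fell from 6692 ± 1840 to 3524 ± 774 CPM, with overlapping ranges (-0.66 ± 0.14, adjusted p = 0.000166).

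In brain miR-152-3p was called higher at week 21, at 0.86 ± 0.19 (adjusted p = 0.000229, edgeR). At week 2 the level was 51.4 to 78.2 CPM with a median of 66.1, and at week 21 it was 57.2 to 262 with a median of 68.1, so the CPM ranges overlapped. The library of female replicate 2 at week 21 held the 262 CPM, and the next one held 88.2. That library also had the highest summed levels of the endocrine list (miR-375-3p and miR-7a-5p, 2823 CPM against 300.3 to 693 in the other 7), of the epithelial list (20815 against 5417 to 13054) and of the lymphocyte and myeloid list (2829 against 771 to 1335). Brain itself had the highest organ mean of miR-7a-5p (476 CPM) in the endocrine list and of miR-200a-3p (1447 CPM) in the epithelial list. The other members of these lists were highest in adrenal gland, kidney or lung. Which cells the lists mark in brain, and their part in the brain value, was not tested. Without replicate 2 of every group the change was 0.40 ± 0.12 (adjusted p = 0.00752), and under library size alone it was 0.44 with an adjusted p of 0.0612.

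In thymus miR-148a-3p rose in 2 steps of age, under TMM, DESeq2 and library size alone. The thymus is where T cells mature, and it shrinks in adult life. Its miR-148a-3p level was 9333 to 18058 CPM at week 2 (median 12048), 8339 to 25452 at week 6 (median 13081), 17847 to 33220 at week 21 (median 20110.2) and 35502 to 58097 at week 104 (median 45916). All 8 libraries of week 104 lay above all of week 21, while the ranges of weeks 2 and 21 met at their ends. The log2 change was 0.88 ± 0.15 from week 2 to 21 (adjusted p = 8.39e-06, edgeR) and 0.73 ± 0.15 from week 21 to 104 (adjusted p = 8.27e-05). The other members did not rise alike. For miR-148b-3p the level fell from 858 ± 70.3 to 608 ± 103 CPM at week 104 (-0.87 ± 0.13, adjusted p = 1.32e-06). For miR-152-3p the step to week 104 was not called under TMM (0.26 ± 0.13, adjusted p = 0.11). That step was called under library size alone (0.63, adjusted p = 0.0015) and DESeq2 (0.50). Over the 457 miRNAs the median change in this step was 0.20 under TMM, 0.54 under library size alone and 0.43 under DESeq2. The miR-152-3p values lay close to these medians. Those of miR-148a-3p (0.73, 1.08 and 0.98) lay above them. The share of the family in thymus counts went from 1.34% ± 0.279 at week 2 to 4.65% ± 0.781 at week 104.

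Cell marker levels of thymus also differed between week 21 and week 104, given here without a test. The summed level of the thymocyte list, miR-181a-5p and miR-181b-5p, was 408462 ± 64253 CPM at week 2, 324395 ± 50920.3 at week 21 and 62782 ± 39068 at week 104, with ranges of 262076 to 401205 at week 21 and 14713 to 110215 at week 104. The red blood cell list had a median of 1576 CPM at week 21 (1148 to 5278) and of 15088 at week 104 (6243 to 93486), where male replicate 3 held the highest value and the next library 28889.6. Within the red blood cell list miR-486 averaged 99885 CPM in spleen and 89875 CPM in skeletal muscle. The sum of that list is therefore not particular to red blood cells. The endothelial marker miR-126a-3p was at 2113 ± 967 CPM at week 21 and 5782 ± 1542 CPM at week 104. The summed lymphocyte and myeloid list was 7744 ± 1309 and 5389.9 ± 1658 CPM at these ages. No marker of these lists was at 0 in all libraries of thymus. The part of a changed cell mixture in the miR-148a-3p rise was not tested.

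**Figure D3:**
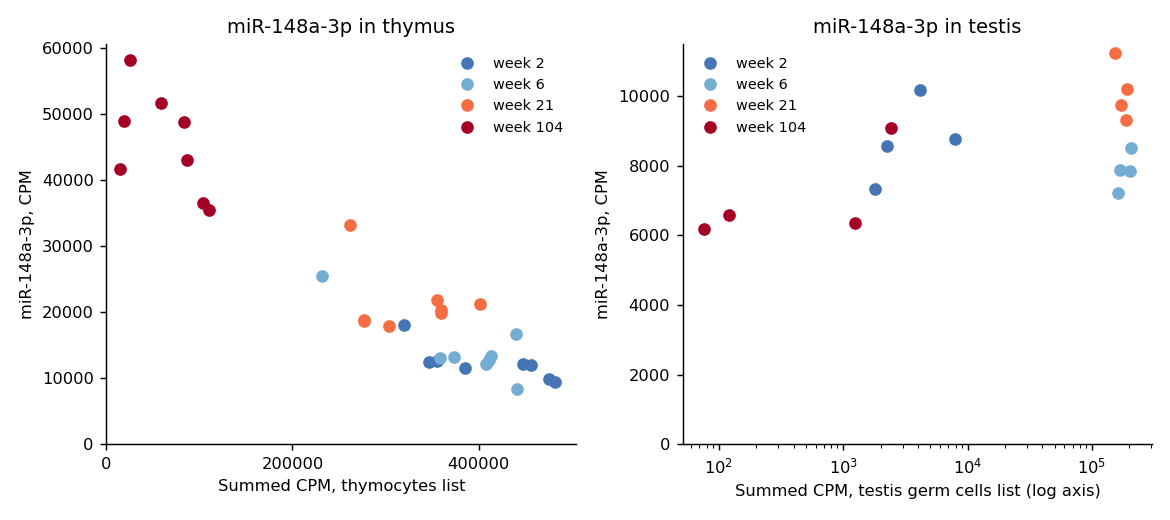
Level of miR-148a-3p in CPM against the summed CPM of the thymocyte list in thymus (linear axes) and against the germ cell list in testis (log horizontal axis), with a point per library and ages in different colours. In thymus the week 104 libraries have 14713 to 110215 CPM of the thymocyte list and 35502 to 58097 CPM of miR-148a-3p, and in testis the germ cell list is high at weeks 6 and 21 and low at weeks 2 and 104.

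In testis the members went apart. The miR-148b-3p values were 813, 918, 1063 and 946 CPM at week 2 and 1438, 1604, 1262 and 1179 at week 21, with no overlap and a log2 change of 0.83 ± 0.17 (adjusted p = 0.000508, edgeR). The miR-152-3p values were 463, 359, 488 and 448 CPM at week 2 and 251, 205, 193 and 139 at week 21, a change of -0.88 ± 0.20 (adjusted p = 0.00113). By week 6 the changes were 0.67 and -0.88, and the first was not called with lane as a covariate (0.70, adjusted p = 0.0601) or without replicate 4 (0.55, adjusted p = 0.0524). Under library size alone the miR-148b-3p change to week 21 was 0.55 with an adjusted p of 0.0677. The germ cell markers of testis come from cells that form during the first wave of sperm formation, which begins before puberty. The summed level of the germ cell list (miR-34c-5p, miR-449a-5p, miR-741-3p and miR-871-3p) was 4029.7 ± 2774 CPM at week 2, 184146 ± 22762 at week 6, 175159 ± 17716 at week 21 and 973 ± 1118 at week 104. Its part in the changes of the members was not tested.

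The last step in testis depended on the scaling. The miR-148a-3p values were 10197, 9757, 9306 and 11245 CPM at week 21 and 9072, 6364, 6585 and 6179 at week 104, so every library of week 104 was below every library of week 21. Under TMM the change was +0.80 ± 0.20 (adjusted p = 0.00275) and under DESeq2 +0.84, while under library size alone it was -0.52 (adjusted p = 0.0256). Over the 457 miRNAs whose mean count reached 10, the median change in this step was 0.20 under TMM and -1.05 under library size alone. The miR-148a-3p value lay above that median on either scale. For miR-152-3p the same step was 0.16 under TMM, not called, and -1.16 under library size alone (adjusted p = 0.000611). For miR-148b-3p both scalings gave a fall, from 1438, 1604, 1262 and 1179 CPM to 487, 463, 214 and 384 (-0.58 ± 0.17 under TMM, adjusted p = 0.00762, and -1.82 under library size alone), with -0.53 and -0.47 without replicate 2 or 3 (adjusted p = 0.0724 and 0.0559). The miR-148a-3p rise in testis from week 2 to 21, +0.52 ± 0.20 (adjusted p = 0.0376), was called under 5 of 11 alternatives, and neither under library size alone (0.22, adjusted p = 0.349) nor without any one replicate number. Among these 5, the full 320 libraries and leaving out libraries rich in pancreas markers change no testis library. Their calls therefore repeat the main one.

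In liver miR-148a-3p was highest at week 2. The miR-148a-3p level was 86262 to 140422 CPM at week 2 (median 102234), 55975 to 87268 at week 6 (median 69959), 51689.6 to 94474 at week 21 (median 61188) and 51643 to 87446 at week 104 (median 64255). The ranges of weeks 2 and 6 overlapped by a small margin. The log2 change was -0.45 ± 0.15 from week 2 to 6 (adjusted p = 0.0184, edgeR) and -0.21 ± 0.15 from week 2 to 21, not called (adjusted p = 0.288). The early fall was not called with lane as a covariate (-0.23, adjusted p = 0.532), among miRNAs whose mean count reached 10 (-0.32, adjusted p = 0.105) or without replicate 2 or 4 (-0.39 and -0.40, adjusted p = 0.102 for each). The family took 10.8% ± 1.89 of liver counts at week 2 and between 6.71% and 7.34% at the later ages. The liver marker miR-122-5p was between 27878 and 31783 CPM on average at the 4 ages.

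In lung and spleen miR-152-3p fell early. Lung went from 463 to 652 CPM at week 2 to 353 to 428 at week 6 with no overlap (-0.36 ± 0.08, adjusted p = 0.00101, edgeR), and to 301 ± 46.4 at week 21 (-0.53 ± 0.09 from week 2, adjusted p = 3.86e-06). Spleen went from 399 to 669.8 CPM at week 2 to 197 to 285 at week 6 (-0.82 ± 0.14, adjusted p = 3.18e-05). Spleen miR-148b-3p fell with it, from 1978 ± 213 CPM at week 2 to 1149.7 ± 190.3 at week 21 (-0.49 ± 0.11, adjusted p = 0.000525, and -0.32 without replicate 2, adjusted p = 0.0948). The RNA of the week 2 spleen libraries is described as less intact in the study's methods, so age and RNA integrity cannot be told apart in these steps.

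In the steps between neighbouring ages, 8 pairs fell and 1 rose from week 2 to 6, where 20.6% of all miRNA and organ pairs fell and 15.4% rose. From week 6 to 21, 4 fell and 3 rose, where 8.94% of all pairs fell and 7.39% rose. From week 21 to 104, 5 fell and 2 rose, where 8.66% fell and 7.38% rose. Under TMM the largest fall of the last step was that of miR-148a-3p in adrenal gland, while under library size alone miR-148b-3p and miR-152-3p in testis fell further (-1.82 and -1.16, against -0.99 in adrenal gland). The adrenal gland is a site of steroid hormone synthesis. Its miR-148a-3p level ran from 4496 to 24736 CPM at week 21 (median 15343) and from 4983 to 9839.7 at week 104 (median 7488), with 1 low library at week 21 and overlapping ranges (-1.06 ± 0.20, adjusted p = 0.000247).

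Whether an organ changed differently from the rest was tested directly, as its change from week 2 to 21 minus the mean change of the other 10 organs, in a single fit of all libraries used. Of 33 such differences 9 were higher and 8 lower, where 14.5% and 11.8% of all differences were called. The largest was miR-152-3p in brain (1.27 ± 0.13, adjusted p = 3.53e-17, edgeR), which was 0.71 without replicate 2. Next came miR-148b-3p in testis (1.14 ± 0.17, adjusted p = 8.35e-10), miR-148a-3p in skeletal muscle (-1.06 ± 0.21, adjusted p = 5.19e-06) and in thymus (1.05 ± 0.21, adjusted p = 2.58e-05), and miR-148b-3p in heart (-0.91 ± 0.12, adjusted p = 8.24e-11). The difference of miR-152-3p in adrenal gland (0.56 ± 0.13) was -0.0044 without replicate 2, and was not called under library size alone. The organs of a rat share that animal, and the fit treats their libraries as independent.

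The members were also compared with each other, as the log2 ratio of their CPM within a library, with a pseudocount of 1 CPM. This ratio is free of library scaling. An exact permutation test (two-sided) compared 8 libraries of week 2 with 8 of week 21, with adjustment over 33 ratios, and 12 were called. Ratios of other miRNAs were not computed, so the usual share of such calls is not known. In thymus miR-148a-3p rose against miR-148b-3p by 0.95 (adjusted p = 0.00128, exact) and against miR-152-3p by 0.68, and in skeletal muscle it fell against them by 1.28 (adjusted p = 0.00205, exact) and by 0.69. In kidney it fell against miR-148b-3p by 0.85, in brain it fell against miR-152-3p by 1.17, and in spleen it rose against miR-152-3p by 0.97. The brain ratios to miR-152-3p include the week 21 library at 262 CPM. The spleen ratio includes the less intact RNA of week 2, so age and RNA integrity cannot be told apart in it. It also includes week 21 libraries rich in pancreas markers, described below. Between miR-148b-3p and miR-152-3p the ratio rose in kidney, lung and skeletal muscle (0.63, 0.43 and 0.59) and fell in brain and heart (-1.29 and -0.39). In testis the ratio of miR-148b-3p to miR-152-3p differed by 1.72, the largest value of all, but 4 against 4 libraries cannot give an exact p below 0.0286, and the adjusted value was 0.0589.

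Spleen libraries of the same age differed widely in miR-148a-3p. At week 21 its libraries ran from 15220.2 to 93202 CPM (median 26098, n = 8) and at week 104 from 24974 to 90488 (median 53512, n = 7). Spleen lies beside the pancreas, whose acinar cells are known for miR-216a-5p, miR-216b-5p and miR-217-5p, and the sum of these markers in spleen ran from 0.554 to 2627 CPM. In the 10 libraries under 20 CPM of the markers the median of miR-148a-3p was 17479 CPM, in the 16 from 20 to under 500 it was 25007 and in the 5 at 500 or more it was 62429. The highest value among the first 10 was 80790.3 CPM, so a high miR-148a-3p level also occurred at a low marker level. For miR-148b-3p the medians of the same libraries were 1180.4, 1212 and 1183 CPM, and for miR-152-3p 269, 307 and 546 CPM. The 5 libraries were female replicate 4 at week 2, female replicates 1 and 4 and male replicate 3 at week 21, and female replicate 3 at week 104.

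The spleen values are therefore given with and without these libraries. The change from week 21 to 104 was 0.66 ± 0.35 (adjusted p = 0.377, edgeR) with them and 1.32 ± 0.30 (adjusted p = 0.00734) without them and without the liver library at 500 CPM or more of the markers. The week 2 to 21 change was 0.45 ± 0.34 (adjusted p = 0.311) and 0.15 ± 0.28 (adjusted p = 0.762). The difference of spleen from the other organs was 0.55 ± 0.21 (adjusted p = 0.0494) and 0.05 ± 0.22 (adjusted p = 1). The choice of these libraries was made after the data were seen, and the part of pancreas tissue in the spleen values was not tested. Over the 31 spleen libraries, which share organ and processing, log2 marker level and log2 miR-148a-3p had a Pearson r of 0.41 (0.37 without the 2 libraries farthest from the median marker level) and a Spearman rho of 0.54, given as a description. The same values were 0.46 and 0.42 for miR-152-3p and 0.23 and 0.16 for miR-148b-3p.

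**Figure D4:**
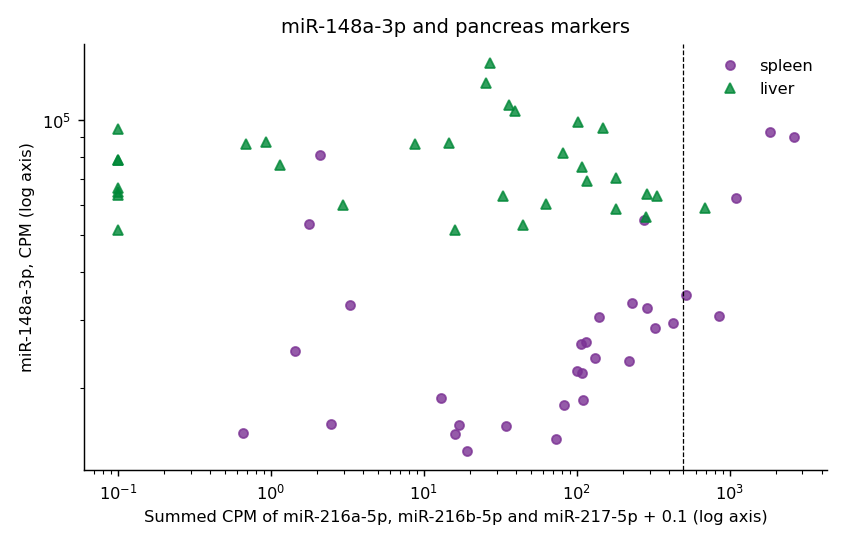
Level of miR-148a-3p in CPM in spleen and liver libraries against the summed CPM of 3 pancreas markers plus 0.1, on log axes, with a dashed line at 500 CPM. In spleen the 5 libraries to the right of the line lie between 30891 and 93202 CPM of miR-148a-3p, and libraries to the left reach 80790.3 CPM, while liver has a single library to the right.

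Sex differences were few. In the 9 organs of both sexes, averaged over the 4 ages, 1 of 27 member and organ pairs was higher in males and 1 in females, where 0.812% and 0.577% of all pairs were called. The pairs were miR-148a-3p in adrenal gland, 1.38-fold higher in males at an adjusted p of 0.05 to the digits given, and miR-152-3p in liver, 1.34-fold higher in females (adjusted p = 0.0151, edgeR). The adrenal call was lost under library size alone (adjusted p = 0.247), with lane as a covariate, with a replicate block (adjusted p = 0.0658) and without replicate 2, 3 or 4. The liver call was lost with lane as a covariate (adjusted p = 0.141) and without replicate 1, 2 or 3.

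The sex difference of miR-152-3p in liver was called at week 21 and at no other age. At week 21 the female libraries had 701, 576, 613 and 748 CPM and the male libraries 196, 211, 319.96 and 252. The groups were far apart, with means of 659.6 ± 78.8 and 245 ± 55.3 CPM, and females were 2.36-fold higher (log2 male minus female -1.24 ± 0.20, adjusted p = 0.000249, edgeR). This call held under each of the 11 alternatives, with values from -1.43 to -1.12, though the full 320 libraries change no liver library. At week 2 the values were 715, 736, 617 and 834 CPM in females and 635, 751, 698 and 1251 in males (0.22 ± 0.20, adjusted p = 0.718). At week 6 they were 549 to 704 in females and 494 to 627 in males, over 4 libraries each (-0.14 ± 0.20, adjusted p = 1). The sexes overlapped at both of these ages. At week 104 the female values were 628, 651, 697 and 799 CPM and the male values 453, 475, 558 and 482, without overlap, but the difference was not called (-0.54 ± 0.20, adjusted p = 0.266).

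The change of miR-152-3p in liver from week 2 to 21 differed between the sexes, at -1.45 ± 0.28 for male minus female (adjusted p = 0.00556, edgeR). It was the only interaction called among 27, where 0.667% of all pairs were called. The call was lost without replicate 2 (-1.34, adjusted p = 0.314) and without replicate 4 (-1.22, adjusted p = 0.194). Male replicate 3 at week 21, the highest of the 4 males, was the liver library with 689 CPM of the pancreas markers, and without it the interaction was -1.52 ± 0.30 (adjusted p = 0.00389). For miR-148a-3p in liver no sex difference was called, although the male mean was the higher at all 4 ages. Over the ages males were 1.17-fold higher (unadjusted p = 0.042, adjusted p = 0.426, edgeR), and the difference was widest at week 21, with 59797 ± 5028 CPM in females and 70882 ± 19364 in males (log2 0.50 ± 0.22, unadjusted p = 0.0277, adjusted p = 0.417).

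**Figure D5:**
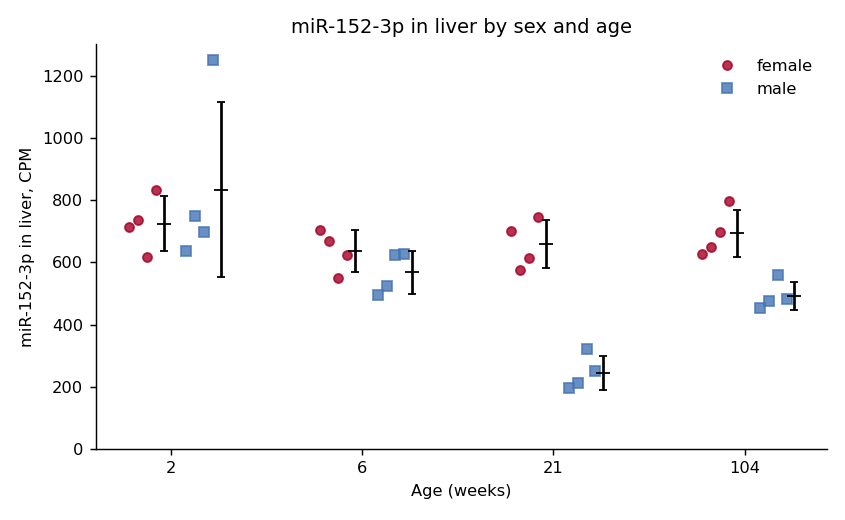
Level of miR-152-3p in liver in CPM by age for females and males, with a point per library and the mean ± SD of 4 libraries. At week 21 the females lie between 576 and 748 CPM and the males between 196 and 319.96, and at week 104 the groups lie closer together.

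Related miRNAs were followed over the same span. From week 2 to 21 the other arms of the hairpins fell in 15 of 33 pairs and rose in none (median log2 change -0.45), where 25.3% of all miRNA and organ pairs fell and 21% rose. Of these miR-152-5p fell in 8 of 11 organs, with a median of -0.94. In thymus, where miR-148a-3p rose by 0.88, its other arm miR-148a-5p had a change of 0.10 ± 0.17 (adjusted p = 0.772, edgeR), and in brain, where miR-152-3p rose, miR-152-5p had -0.45 ± 0.23 (adjusted p = 0.104). The miR-130 and miR-301 family, whose shifted seed is shown above, fell in 28 of 44 pairs and rose in none, with a median of -1.06, against the same 25.3% and 21%. Within it miR-130b-3p and miR-301b-3p had median changes of -1.95 and -1.79, and miR-130a-3p -0.18. The median of the 33 family pairs was -0.24.

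The miRNAs known to act on lipid and cholesterol genes rose in 31 of 77 pairs and fell in 11, with a median of 0.31, where 21% of all pairs rose and 25.3% fell. In liver, where miR-148a-3p is most abundant, miR-33-5p, which is encoded within a sterol regulator gene and lowers Abca1, rose by 1.11 ± 0.25 (adjusted p = 0.000394, edgeR), and miR-122-5p, a liver-enriched miRNA, changed by 0.34 ± 0.15 (adjusted p = 0.0562). The level of miR-27a-3p rose in 10 of 11 organs and miR-122-5p fell in 7, liver not among them. These 7 are among the 11 falls of the list. The organ mean of miR-122-5p was 29704 CPM in liver and next highest in lung, at 122 CPM. The miR-29 family, known to act on DNA methyltransferases as the miR-148 family is, rose in all 33 pairs, with a median log2 change of 3.15. On the same contrast the members fell in 14 pairs and rose in 4.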

How the data were processed

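Small RNA libraries of whole organs were sequenced and the authors trimmed the reads with fastp 0.23.2, aligned them with Bowtie 1.3.1 to miRBase and other transcript collections, discarded miRNAs with a low mean count and deposited raw counts per miRNA (unit: read counts, not normalized). The labels name the genome build rn7. All per-sample columns were matched to a sample by name, with 0 left over. Counts were tested with edgeR 4.0.16 (quasi-likelihood, TMM) in R 4.3.3, with DESeq2 1.42.0 as an alternative. Levels are CPM from column totals, computed in Python 3.11.15 (pandas 2.3.3, SciPy 1.17.1, NumPy 2.4.6), and figures were drawn with matplotlib 3.10.9. Calls use an adjusted p under 0.05 over 616 miRNAs. The miRNAs named are the members, the other arms, the miR-130 and miR-301 family, fixed lists of lipid and DNA methyltransferase miRNAs, cell markers and the 3 miRNAs most like each member. The members and lists were chosen with earlier results of these data known. The labels do not say which libraries came from the same rat. Only some comparisons, under the main settings, were tested on simulated data, and the other fits and the alternatives were not. The simulated libraries were independent, so that test does not cover shared animals. Replicates of an organ, sex and age are different rats, but each rat gave 10 organs, so fits across organs hold libraries that share animals and treat them as independent. The alternatives were library size alone, DESeq2, only miRNAs whose mean count reached 10, the full 320 libraries, lane as a covariate (8 lanes), a replicate block, leaving out each replicate number in turn, and, for ratios, a pseudocount of 0.1 CPM. Leaving out libraries with at least 500 CPM of pancreas markers, and the week 2 spleen libraries, was chosen after the data were seen.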

Additional observations from a re-analysis of the deposited data

Results flagged for a closer look

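In 14 of 234 groups of 4 libraries (5.98%, where chance gives about 5%) 1 library stood apart by Dixon's test. For miR-148a-3p these were the highest library of heart male week 6 (9719 CPM), kidney female week 21 (4749), skeletal muscle female week 21 (2908), testis male week 104 (9072), thymus male week 2 (18058) and thymus male week 21 (33220), and the lowest of thymus female week 6 (8339). For miR-148b-3p they were the highest of adrenal gland female week 2 (627 CPM), brain female week 21 (1039.9), brain male week 21 (1040.1) and thymus male week 6 (1827), and the lowest of heart male week 104 (591). For miR-152-3p they were the highest of brain female week 21 (262 CPM) and thymus female week 104 (479.6).

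The change of miR-152-3p in liver from week 2 to 21 differed between the sexes by -1.45 (log2, male minus female, adjusted p = 0.00556, edgeR). The change from week 2 to 21 differed between an organ and the mean of the other 10 organs in 17 of 33 tests. Over all miRNAs 14.5% of such differences were called higher and 11.8% lower. For miR-148a-3p the differences were -0.78 in heart, -1.06 in skeletal muscle, 0.55 in spleen, 0.91 in testis and 1.05 in thymus. For miR-148b-3p they were -0.45 in brain, -0.91 in heart, 0.37 in kidney, 0.30 in liver, -0.61 in spleen and 1.14 in testis. For miR-152-3p they were 0.56 in adrenal gland, 1.27 in brain, -0.45 in lung, -0.58 in spleen, -0.55 in testis and 0.38 in thymus. The RNA of week 2 spleen was less intact, so age and RNA integrity cannot be told apart in the spleen differences. Of the 11 alternatives, 7 lost the call of miR-148a-3p in spleen, 6 that of miR-152-3p in lung (adjusted p up to 1 without replicate 2), 5 those of miR-148b-3p in liver and miR-152-3p in testis (-0.13, adjusted p = 0.555 under DESeq2), 4 that of miR-152-3p in adrenal gland, 3 those of miR-148a-3p in heart and miR-152-3p in thymus, and 2 those of miR-148b-3p in kidney and miR-152-3p in spleen. The other 8 held under each of them.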

How the results depend on the processing

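Of 61 single changes and differences called, 31 held under each of the 11 alternatives and 30 were lost under at least 1. In the fits per organ, the full 320 libraries change only brain and spleen. Leaving out libraries rich in pancreas markers changes only spleen and liver there. In the other organs these alternatives repeat the main fit and could not lose a call. Library size alone kept 50 of 61, DESeq2 58, lane as a covariate 51, and leaving out a replicate number 44 to 49. Reversed values were miR-148a-3p in testis from week 21 to 104 under library size alone (-0.52) and miR-152-3p in adrenal gland against the other organs without replicate 2 (-0.0044, and up to 0.53 without another replicate). The cause was not tested. Library size alone gave 92 called pairs for miR-148b-3p (56 under TMM), 1 rise from week 2 to 21 (4 under TMM), falls of 18 from week 2 to 6, 9 from week 6 to 21 and 8 from week 21 to 104, and 0 sex calls for males. DESeq2 gave 35 pairs for miR-148b-3p, 13 falls from week 2 to 6 and 2 sex calls for males. With lane there were 0 rises from week 2 to 6, 1 from week 6 to 21 and 0 sex calls in either direction. Without each replicate number, falls from week 21 to 104 ranged from 3 to 4, rises from 2 to 4, rises from week 2 to 6 from 0 to 1, sex calls from 0 to 1 in each direction and interaction calls from 0 to 1. On TMM effective library sizes the family took 0.293% in brain, then the lowest organ, 0.726% in kidney and 1.49% in uterus. Same-numbered libraries of different organs had a mean correlation of deviations of 0.0103, against -0.0033 for other numbers. Between ages it was 0.00724 and between sexes -0.00308. These values do not show whether same-numbered libraries came from the same rat. The replicate block left 147, 55 and 98 called pairs for miR-148a-3p, miR-148b-3p and miR-152-3p and the counts of age calls, and removed the male sex call (0). It left 2 differences from the other organs uncalled, miR-148a-3p in spleen (adjusted p = 0.0735, edgeR) and miR-148b-3p in liver (adjusted p = 0.0571). Counting error was at most 10.3% at the lowest count of a member.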
